A study of Mus musculus with 9 samples.

Results

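Bcl6 encodes a BTB zinc finger protein that represses transcription. It is the lineage factor of germinal centre B cells and follicular helper T cells, and it is also expressed in developing T cells of the thymus. In mammals the gene lies beside a long stretch with few genes that leads to Lpp, which encodes a LIM domain protein of cell adhesion sites, and in germinal centre B cells a block of enhancers upstream of Bcl6 is known to lie in that stretch. Smc1 is a subunit of cohesin, the ring complex that extrudes chromatin loops, and H3K27ac, an acetylated histone, sits at promoters and enhancers in use.

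The data describe 1 gene, Bcl6, out of 21631 protein-coding genes on chromosomes 1 to 19 and X. It was chosen by its Smc1 contact level, the read pairs of its Smc1 libraries, as a gene with many contacts, so its Smc1 contact level is given as a description, with no test of that level against other genes. HiChIP, which joins chromosome conformation capture to immunoprecipitation, counts read pairs whose ends come from distant DNA segments held near the precipitated protein or mark. The cells were live CD4+ CD8+ thymocytes, sorted by antibodies to CD4 and CD8a; age, sex and the number of mice are not given in the sources used here. Smc1 HiChIP was done on NOD/ShiLtJ (NOD) mice with 2 libraries, on C57BL/6J (BL6) mice with 2 libraries, and on (NOD/ShiLtJ X C57BL/6) F1 mice with 1 library. H3K27ac HiChIP was done on NOD with 2 libraries and on BL6 with 2 libraries. No animal carried a transgene or received an agent, as far as the labels say. The Smc1 libraries of a strain are technical replicates of 1 biological sample, so p-values from them measure spread that may be technical; those of H3K27ac are biological replicates. For the 4 H3K27ac samples the title says Smc1 and the antibody field H3K27ac; the field was followed. Each NOD table was made on the NOD genome and shifted to reference positions, per the table names, so strain and mapping genome cannot be told apart.

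Libraries held between 1484554 and 2620662 listed read pairs with anchors at least 10 kb apart for NOD and BL6 Smc1, between 381010 and 1203808 for H3K27ac, and 765188 for F1 on the BL6 genome. Chromosome 16, which carries Bcl6, held 0.972% and 1.13% of read pairs in the H3K27ac libraries numbered 1 of NOD and BL6, against 3.43% and 3.72% in those numbered 2. In Smc1 libraries its share was 3.59% and 2.55% in NOD, and 3.93% and 3.50% in BL6. The part of this uneven share in the results below was not tested, and values relative to chromosome 16 read pairs are given beside those relative to the library. Markers do not check the sort here, because HiChIP reports contacts and not expression: all 15 markers of double-positive thymocytes and all 12 of B cells had listed Smc1 read pairs, as did all 12 myeloid, 9 of 10 erythroid and all 9 thymic epithelial markers.

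Bcl6 lies on the minus strand at chr16:23965050-23988866 (GRCm38). A contact of Bcl6 was a listed interaction with an anchor touching the gene or the 5 kb on either side, a window of 33.8 kb, and with anchor midpoints at least 10 kb apart. Higher positions on the chromosome are upstream of Bcl6 and lead to Lpp at chr16:24393350-24992578 and to Tprg, a gene named for its regulation by p63, at chr16:25286817-25423588. Bcl6 has 2 annotated groups of start sites. Its contacts were split by the part of the window that held the anchor, among them the 3′ end and the stretch from the second to the first start site. The 250 bases before each start site, and before the start of the noncoding RNA gene A230028O05Rik, whose 25 kb bin was the strongest partner of Bcl6, are shown from RefSeq (GRCm38.p6), 5′ to 3′ on the strand of the gene. Capitals mark GATC, the site of MboI, the enzyme that cut the chromatin.
Bcl6 first start site, chr16:23988853-23989102, minus strand: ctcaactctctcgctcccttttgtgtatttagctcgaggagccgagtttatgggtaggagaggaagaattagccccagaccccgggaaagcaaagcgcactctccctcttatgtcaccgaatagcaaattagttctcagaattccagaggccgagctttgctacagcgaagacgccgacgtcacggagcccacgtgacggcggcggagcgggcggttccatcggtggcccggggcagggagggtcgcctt
Bcl6 second start site, chr16:23981284-23981533, minus strand: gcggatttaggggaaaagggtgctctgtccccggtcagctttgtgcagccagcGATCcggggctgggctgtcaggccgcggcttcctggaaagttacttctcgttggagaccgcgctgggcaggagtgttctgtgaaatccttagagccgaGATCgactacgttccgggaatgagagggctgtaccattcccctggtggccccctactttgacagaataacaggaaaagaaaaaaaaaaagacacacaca
A230028O05Rik start site, chr16:25059389-25059638, plus strand: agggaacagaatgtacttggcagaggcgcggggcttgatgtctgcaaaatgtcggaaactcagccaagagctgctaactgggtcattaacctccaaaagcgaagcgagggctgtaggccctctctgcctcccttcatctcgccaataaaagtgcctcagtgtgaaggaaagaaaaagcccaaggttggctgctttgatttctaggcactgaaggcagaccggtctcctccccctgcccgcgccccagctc

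GATC was absent from the first Bcl6 window and occurred at 2 places in the second; 41.7% of 32536 promoter windows of the same length held it. The A230028O05Rik window had none. The letters TTCNNNGAA, the pattern bound by STAT proteins, were found at 1 place before the first start site and 3 before the second, against a share of 7.04% of windows with at least 1. CACGTG, an E-box, stood at 1 place before the first start site, and 6.04% of windows held it. AGGGGGC, a core of the CTCF motif, was found at 1 place before the second start site, and 9.50% of windows held it. Motifs were searched on both strands, and a match is a description of these letters alone.

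Contact levels are given in RPM, read pairs of the gene per 1000000 listed read pairs of the library. Bcl6 had 295 and 187 RPM in the NOD Smc1 libraries, against 295 and 161 in the BL6 Smc1 libraries. These came from 491 and 277 read pairs in NOD and from 560 and 423 in BL6. The strains overlapped, and in both the library numbered 1 was higher. The F1 library gave 277 RPM mapped to NOD and 294 mapped to BL6, near the higher library of each parent. In H3K27ac, Bcl6 had 42.0 and 191 RPM in NOD, and 0 and 208 in BL6. The 0 is a library in which no interaction of Bcl6 passed the listing limit of 2 read pairs and a q-value of 0.05, and not a measured absence. Both low H3K27ac libraries are those with the low share of chromosome 16. Per 1000 read pairs of chromosome 16, Bcl6 had 8.23 and 7.32 in NOD Smc1, and 7.49 and 4.61 in BL6 Smc1. On that scale H3K27ac gave 4.32 and 5.56 in NOD, and 0 and 5.58 in BL6, so the NOD library numbered 1 stood closer to its replicate.

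**Figure D1:**
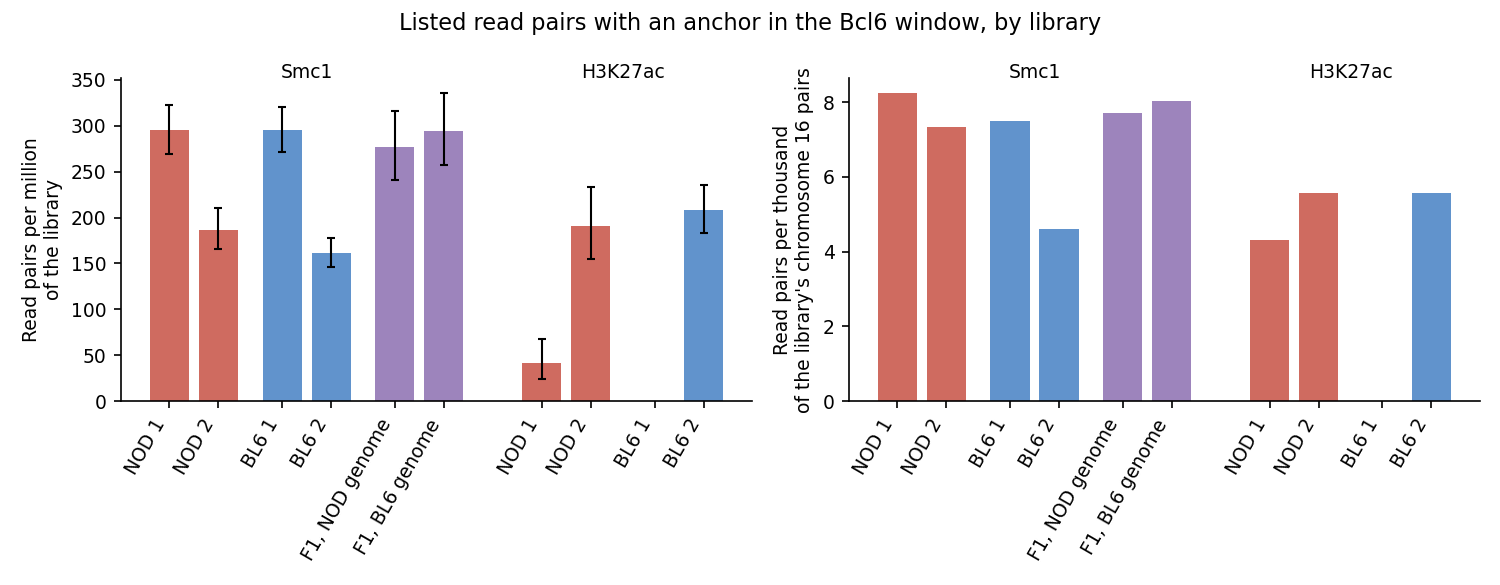
Read pairs of Bcl6 in each library, in RPM with 95% Poisson intervals (left) and per 1000 of the library's chromosome 16 read pairs (right), NOD in red, BL6 in blue and F1 in purple. NOD and BL6 Smc1 bars overlap on both scales, and the H3K27ac library BL6 1 had no listed interaction of Bcl6.

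Bcl6 ranked higher by contacts per length than in total. Averaged over the 4 NOD and BL6 Smc1 libraries, Bcl6 had 234 ± 70.6 RPM (SD, n = 4) and ranked 766 of 21631 genes. Its neighbours in that order were Pdzrn4 at 234.5 and Ano2 at 234.5, which do not differ from it beyond the spread of the libraries. Per kb of window it had 6.93 RPM on average and ranked 5. In single libraries it had 8.73 and 5.52 RPM per kb in NOD, ranking 6 and 27, and 8.72 and 4.77 in BL6, ranking 3 and 23. Lpp, with a much longer window, ranked 3 in total with 1447 RPM but had only 2.38 per kb. Bcl11b, a transcription factor gene needed for T cell identity, ranked 191 in total with 449 RPM and had 4.33 per kb. Windows were fixed at the gene with 5 kb on either side, and contacts stood just outside them too: anchors 3445 bp above the window in BL6 Smc1 library 1 and 3484 bp above it in NOD Smc1 library 2 carried 134 and 97 read pairs.

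Nearly all contacts of Bcl6 ran upstream, towards Lpp. The partner lay on the Lpp side in 93.7% and 97.5% of read pairs in NOD Smc1, and in 97.9% and 96.7% in BL6 Smc1. The exact (Clopper-Pearson) 95% intervals, which cover counting error only, ran from 91.2% to 95.7% and from 94.9% to 99.0% in NOD, and from 96.3% to 98.9% and from 94.5% to 98.2% in BL6. In the F1 library the share was 92.2% mapped to NOD and 92.4% mapped to BL6. In H3K27ac it was 87.5% and 86.3% in NOD, and 89.6% in the BL6 library that listed Bcl6. All 3 H3K27ac values lay under all 4 Smc1 values. Their 95% intervals ran from 61.7% to 98.4% and from 77.7% to 92.5% in NOD, and from 85.1% to 93.1% in BL6 library 2. Each of these overlapped the interval of NOD Smc1 library 1. The mean was 87.8% ± 1.66 in H3K27ac (SD, n = 3) and 96.4% ± 1.89 in Smc1 (SD, n = 4), a difference of -8.62 percentage points. A two-sided exact permutation test gave p = 0.0286, the smallest that 3 against 4 libraries allow, and 0.343 after Benjamini-Hochberg adjustment over 12 comparisons, so the difference did not pass the correction. The test took the 4 Smc1 libraries as independent and pooled the strains. Smc1 libraries of a strain are technical replicates of 1 biological sample, so this p overstates the independent samples. H3K27ac and Smc1 libraries also differ in depth, and the H3K27ac value of NOD library 1 rests on 16 read pairs.

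The contacts were long. The median span of a Bcl6 read pair was 892 and 1017 kb in NOD Smc1, and 985 and 969 kb in BL6 Smc1. It was 1061 kb in F1 on both genomes. In H3K27ac it was 1063 and 821 kb in NOD, and 973 kb in BL6 library 2. Spans over 250 kb made up 94.1% and 98.9% of read pairs in NOD Smc1, and 97.7% and 95.3% in BL6 Smc1. Contacts of 10 to 100 kb, which held between 13.3% and 16.2% of all chromosome 16 read pairs, held at most 2.13% of those of Bcl6 in any of these 4 libraries. Spans of 1000 to 1500 kb held between 39.5% and 51.6% of Bcl6 read pairs, against 12.6% to 16.6% on chromosome 16 as a whole. On chromosome 16, a listed Smc1 interaction of 10 to 100 kb held 4.20 to 5.16 read pairs on average, and one of 1000 to 1500 kb 2.15 to 2.21. Whether the listing limit differs with distance was not tested.

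Both features were rare among genes. Of 7716 genes with at least 50 read pairs in each of the 4 Smc1 libraries, 18 other genes, 0.233%, had at least as large a share on their busier side as the 96.8% of Bcl6, the mean over libraries after leaving out pairs within the window. The median gene had 63.2%. These 18 genes included Bcl11b at 98.5% and Sgk1, a kinase gene, at 98.1%. A share of spans over 250 kb as large as the 96.5% of Bcl6 was found in 6 other genes, against 72.8% in the median gene, and 1 of the 6 was Rtp2, the neighbour of Bcl6. The median span of Bcl6, 966 kb on average, was reached by 3.56% of the genes, and the median gene had 530 kb.

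**Figure D2:**
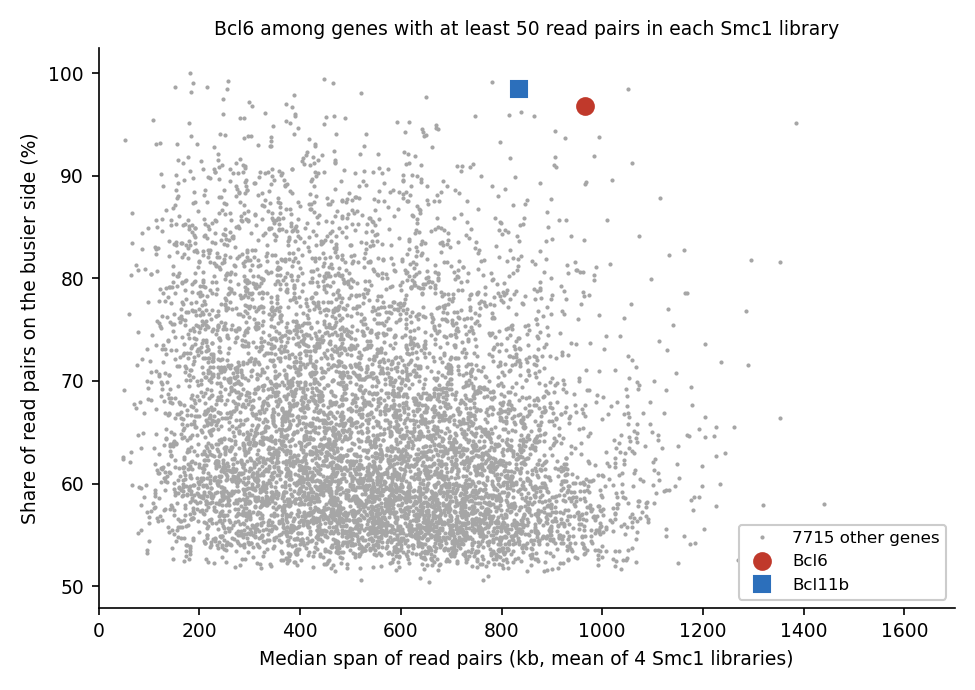
Each of 7716 genes with at least 50 read pairs in every NOD and BL6 Smc1 library, by the median span of its read pairs in kb (horizontal) and the share of read pairs on its busier side in percent (vertical), both averaged over the 4 libraries. Bcl6 (circle, 966 kb and 96.8%) lies in the sparse upper right, as does Bcl11b (square, 834 kb and 98.5%).

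Contacts grew denser with distance up to the stretch beyond Lpp and were sparse past Tprg. Within the 394 kb between the windows of Bcl6 and Lpp, Bcl6 had 5.32 RPM per 100 kb on average over the 4 Smc1 libraries. Within the Lpp window, 609 kb long, it had 17.1. In the 284 kb between Lpp and Tprg, which hold no protein-coding gene of the gene table, it had 30.2. The Tprg window had 8.64, and the chromosome beyond it 0.424. The 2000 kb on the other side of Bcl6 had 0.385. In every one of the 4 libraries the stretch between Lpp and Tprg was densest and the Lpp window next. Between Lpp and Tprg Bcl6 had 32.1 and 27.3 RPM per 100 kb in NOD, and 40.6 and 20.7 in BL6; in the Lpp window it had 20.8 and 13.4 in NOD, and 22.2 and 11.8 in BL6. H3K27ac gave the same order in the 3 libraries that listed Bcl6, with 8.31 and 20.5 between Lpp and Tprg in NOD and 24.5 in BL6 library 2, and with 2.15 and 14.5 in the Lpp window in NOD and 14.9 in BL6 library 2.

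Smc1 anchors were listed in all these stretches. The 4 Smc1 libraries listed between 17.7 and 28.6 anchors per 100 kb in the gap before Lpp, between 25 and 30.3 between Lpp and Tprg, and between 18.6 and 24.4 beyond Tprg. The share of them joined to Bcl6 was 5.71% to 16.2% before Lpp, 30.9% to 42.4% in the Lpp window, 40% to 48.8% between Lpp and Tprg, 17.5% to 25% in the Tprg window and 0.952% to 2.52% beyond it. On the other side of Bcl6, with 18.8 to 27.9 anchors per 100 kb, it was 0.798% to 2.3%. H3K27ac anchors were sparse beyond Tprg, with 1.59 and 1.24 per 100 kb in NOD and 1.06 and 6.90 in BL6, against 6.68 and 14.4 in NOD and 5.63 and 22.9 in BL6 between Lpp and Tprg.

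The strongest partner bin of 25 kb, chr16:25050001-25075000, holds the noncoding RNA gene A230028O05Rik and lies 1074 kb from the first Bcl6 start site. It had 38 and 29 read pairs with Bcl6 in NOD Smc1, and 64 and 39 in BL6 Smc1, or 9.71% of Smc1 read pairs of Bcl6 on average. In H3K27ac it had 3 and 7 in NOD, and 0 and 20 in BL6, and it ranked 1 there as well. The second bin, chr16:25250001-25275000, holds no gene of the gene table and lies just before Tprg. It had 29 and 24 read pairs in NOD Smc1, and 36 and 37 in BL6 Smc1. The bins on either side of the first, at chr16:25075001-25100000 and chr16:25025001-25050000, were next in rank. All 6 other bins of the first 10 overlap the Lpp gene. Among them chr16:24375001-24400000, most of which lies before the start of Lpp, had 20 and 0 read pairs in NOD Smc1 and 16 and 12 in BL6 Smc1. In H3K27ac, 6 of the first 10 bins were in the first 10 of Smc1 too.

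The strongest single interaction, with ties ordered by q-value, led to a bin between Lpp and Tprg in every Smc1 library. In NOD H3K27ac library 2 it led nearer to Bcl6, and some tied or lower-ranked interactions did so elsewhere. The strongest of all, with 15 read pairs in BL6 Smc1 library 1, joined chr16:23961599-23965638 at the 3′ end of Bcl6 to chr16:25064410-25068802 within A230028O05Rik, 1103 kb apart. In NOD Smc1 library 1 an interaction of 7 read pairs joined chr16:23961753-23965502 to chr16:25263119-25264806, 1300.3 kb apart. Interactions of 7 read pairs in the same library also led to chr16:24385118-24388841, 396 kb away near the start of Lpp, and to chr16:24237887-24239773, 255 kb away in the gap before Lpp. In NOD Smc1 library 2 the strongest, with 5 read pairs, joined chr16:23973524-23975428 in the gene body to chr16:25066761-25068783, 1093 kb apart. A tied one of 5 read pairs joined chr16:23963289-23965498 to chr16:25069940-25072227, 1107 kb apart. BL6 Smc1 library 2 had 7 read pairs with chr16:25032330-25033680, 1069 kb away. It had 6 with chr16:25263847-25265099, 1300.1 kb away, and 6 with chr16:24042244-24044560, 51.5 kb away. The strongest in NOD H3K27ac library 2, with 4 read pairs, led to chr16:24219107-24221124, 246 kb away. Between 54.2% and 60% of Bcl6 interactions in these 4 libraries rested on 2 read pairs, so a single partner missing from a library says little.

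**Figure D3:**
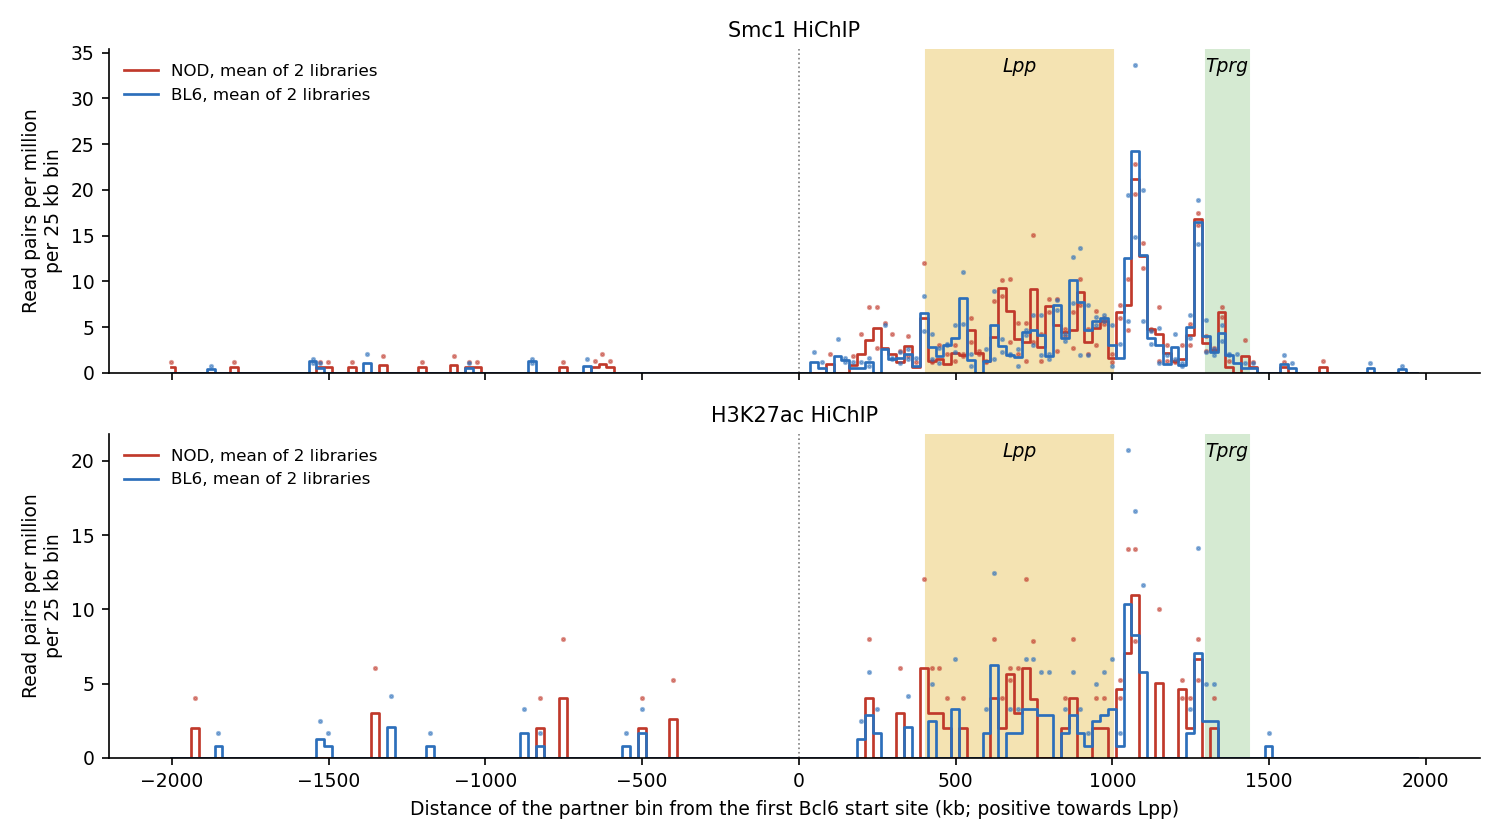
Contacts of Bcl6 in RPM in 25 kb partner bins (vertical) by distance from the first start site in kb (horizontal), for Smc1 (top) and H3K27ac (bottom). Lines are means of 2 libraries, NOD in red and BL6 in blue, dots are single libraries above 0, and shading marks Lpp and Tprg; the tallest bins lie 1074 and 1274 kb from the start site.

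Most Smc1 read pairs of Bcl6 lay in bins listed in all 4 NOD and BL6 libraries. Of 81 Smc1 partner bins, 31 were listed in all 4 libraries and held 77.1% of read pairs, while the 24 listed in only 1 held 3.9%. NOD listed 68 and BL6 65 bins, of which 52 were shared, 76.5% of those of NOD and 80% of those of BL6. Of 51 H3K27ac bins, 40 were also Smc1 bins, 78.4% of the first and 49.4% of the second. No such shares of other genes are given here, and bins with few read pairs can drop out at the listing limit. These overlaps thus only describe Bcl6. Over the 79 bins on the Lpp side, the mean profiles of NOD and BL6 had a Pearson r of 0.857 and a Spearman rho of 0.789; the 2 NOD libraries had an r of 0.744 between them and the 2 BL6 libraries 0.819. NOD and BL6 H3K27ac libraries numbered 2 had an r of 0.591 and a rho of 0.441 between them. Between these and single Smc1 libraries r ran from 0.343 (NOD H3K27ac library 2 with NOD Smc1 library 2) to 0.794 (BL6 H3K27ac library 2 with BL6 Smc1 library 1). These bins are not independent, and distance and anchor positions are common to all libraries, so the coefficients only describe the profiles.

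Named partner genes were few. Lpp held 43.0% and 43.7% of Bcl6 read pairs in NOD Smc1, and 45.9% and 44.7% in BL6 Smc1, by the midpoint of the partner anchor. It held 31.3% and 46.3% in NOD H3K27ac, and 43.6% in BL6 H3K27ac library 2. Seen from Lpp, contacts with Bcl6 made up 8.24% and 6.82% of its read pairs in NOD Smc1, and 8.18% and 5.44% in BL6 Smc1. Here and for the genes below, a partner anchor counted if any part of it overlapped the gene or its 5 kb flanks. Counted so, Lpp held 45.0% of Bcl6 read pairs in NOD Smc1 library 1. Tprg had 24 and 19 read pairs with Bcl6 in NOD Smc1, and 28 and 25 in BL6 Smc1. On the other side, the most were 6 and 0 in NOD Smc1, and 4 and 0 in BL6 Smc1, for Dgkg, a diacylglycerol kinase gene. St6gal1, which encodes a sialyltransferase, had 2 and 2 in NOD Smc1, and 0 and 4 in BL6 Smc1. Etv5, an ETS factor gene, had 0 in both NOD Smc1 libraries, and 2 and 2 in BL6 Smc1. Rtp4 had 0 in these libraries and 5 in F1 on both genomes. Masp1, Adipoq, Igf2bp2, Senp2 and Crygs, the rest of the 10 leading partner genes over both antibodies, had at most 4 read pairs in any library. Sst and Rtp2, the nearest protein-coding genes on that side, had none.

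The neighbourhood turned its contacts around Bcl6. Rtp2 had 66.0% to 77.0% of its Smc1 read pairs towards higher positions and Sst, the somatostatin gene, 46.7% to 65.4%. Bcl6 had 95.0% to 97.9%, after leaving out pairs within the window. Lpp had 23.0% to 28.7% and Tprg 15.3% to 20.8%, so both sent most contacts back towards Bcl6's side, while Trp63, the p63 gene beyond them, had 49% to 58.8%. In 25 kb bins, the share directed to higher positions peaked in the bin that holds the Bcl6 start sites, at 95.2% in NOD and 97.5% in BL6. The next bin towards Lpp, chr16:24000001-24025000, lies outside the Bcl6 window and had 94.4% in NOD and 95.1% in BL6. The strong direction was thus shared by the stretch just above Bcl6 and was not particular to the gene. The share was lowest at A230028O05Rik, at 4.76% in NOD and 3.57% in BL6. The same read pairs enter the bins at both of their ends.

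**Figure D4:**
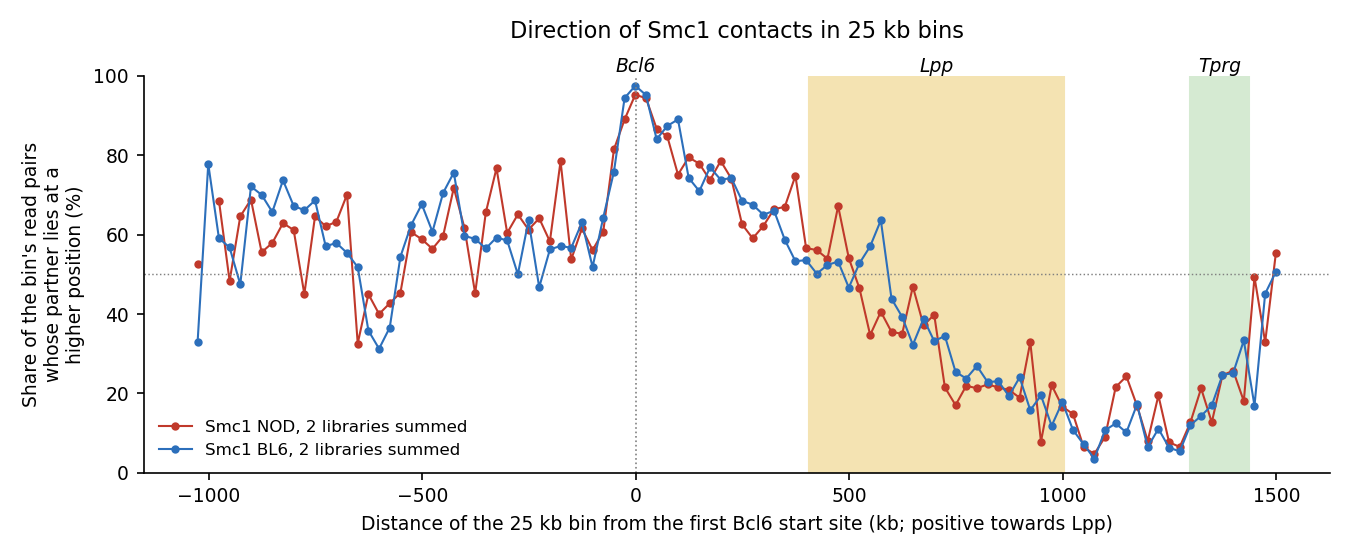
Share of Smc1 read pairs of each 25 kb bin whose partner lies at a higher position, in percent (vertical), by distance of the bin from the first Bcl6 start site in kb (horizontal), for NOD (red) and BL6 (blue), 2 libraries summed each. The share peaks at Bcl6 in both strains, is nearly as high in the next bin towards Lpp, falls across Lpp and is lowest 1074 kb away, before Tprg.

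Within the gene, anchors near the 3′ end and anchors in the stretch between the 2 start sites reached different distances. Classes of anchors were drawn after the anchors had been seen, so no test is given. Anchors within 3 kb of the 3′ end carried 31.8% and 28.2% of read pairs in NOD Smc1, and 30.0% and 35.2% in BL6 Smc1. Anchors between the second and the first start site carried 44.4% and 12.6% in NOD Smc1, and 40.7% and 35.5% in BL6 Smc1. Those in the gene body between carried 7.33% and 32.1% in NOD Smc1, and 17.5% and 23.4% in BL6 Smc1. Shares of the start-site part thus varied more between libraries than those of the 3′ end. An anchor touching the 250 bases before the first start site was listed in NOD Smc1 library 1, BL6 Smc1 library 1 and F1, and before the second in NOD Smc1 library 2 and BL6 Smc1 library 1. Anchors holding a start site carried 13 of the 218 read pairs of the start-site part in NOD Smc1 library 1. In BL6 Smc1 library 1 those with the first and the second site carried 35 and 13 of 228. In BL6 Smc1 library 2 no anchor held a start site. In NOD Smc1 library 2 the anchor with the second site was counted in the gene body. Spans of the start-site part are thus mostly those of anchors beside the start sites.

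From the 3′ end, the median span was 1063 and 1103 kb in NOD Smc1, and 1103 and 1126 kb in BL6 Smc1. From the start-site part it was 751 and 825 kb in NOD Smc1, and 864 and 803 kb in BL6 Smc1. The difference, 209 to 323 kb over all libraries in which the 3′ end reached farther, exceeds the length of the gene, 23.8 kb, many times. It had this direction in 7 of 8 libraries with contacts from both, F1 counted once; the exception, NOD H3K27ac library 1, had 4 and 2 read pairs. Contacts of the 3′ end fell between Lpp and Tprg in 37.8% and 57.7% of read pairs in NOD Smc1, and in 50.6% and 52.3% in BL6 Smc1. Those of the start-site part fell there in 28.9% and 17.1% in NOD Smc1, and in 30.3% and 20% in BL6 Smc1. Both shares were 50.0% and 0% in NOD H3K27ac library 1 and 10.5% and 42.9% in NOD H3K27ac library 2, where the order turned, and 42.9% and 29.6% in BL6 H3K27ac library 2, the 3′ end first each time. Contacts of the start-site part lay in the Lpp window in 44.0% and 68.6% in NOD Smc1, and in 55.3% and 54.7% in BL6 Smc1. Long spans were not particular to the 3′ end. The gene body between had medians of 931 and 965 kb in NOD Smc1, and 1056 and 1067 kb in BL6 Smc1. In BL6 H3K27ac library 2 its median was 1103 kb, against 1027 kb at the 3′ end. Anchors over 3 kb past the 3′ end had 1215 and 1106 kb in NOD Smc1, and 1118 kb in BL6 Smc1 library 1.

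**Figure D5:**
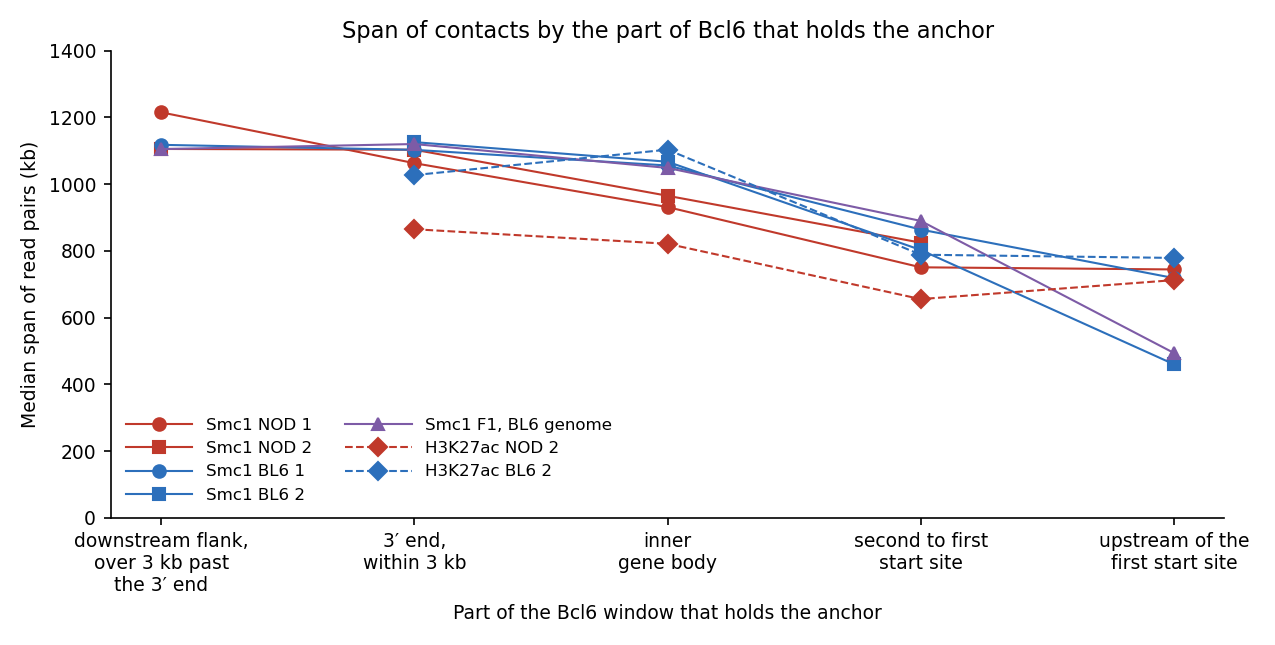
Median span of Bcl6 read pairs in kb (vertical) by the part of the Bcl6 window that holds the anchor (horizontal, from downstream to upstream), 1 line per library, solid for Smc1 and dashed for H3K27ac, NOD in red, BL6 in blue and F1 in purple. Medians lie at 1063 kb or more at the 3′ end in the Smc1 libraries and at 890 kb or less between the start sites; NOD H3K27ac library 1, with 16 read pairs, is left out.

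NOD and BL6 were set against each other in a fit of all genes. For Smc1, the log2 fold change of Bcl6, NOD over BL6, was 0.11 ± 0.32 (SE), with an adjusted p of 0.999 by edgeR's quasi-likelihood test; 34 of 18053 genes tested, 0.188%, were called. For H3K27ac it was 0.07 ± 1.66 (SE), with an adjusted p of 1.00 by edgeR; of 13884 genes tested 0, or 0%, were called, 106 had an unadjusted p below 0.05, and DESeq2 called 20. The strain difference differed between H3K27ac and Smc1 by -0.04 ± 1.80 on the log2 scale, with an adjusted p of 1.00 by edgeR; 0 of 18100 genes, 0%, were called, and 335 had an unadjusted p below 0.05. With these errors, differences of this size were not detectable. The sign of each was not stable: leaving out NOD Smc1 library 1 gave -0.15, leaving out BL6 Smc1 library 2 gave -0.26, leaving out BL6 Smc1 library 1 gave 0.58 and leaving out NOD Smc1 library 2 gave 0.33 for Smc1.

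Pairs of 25 kb bins with an end in a bin overlapping the Bcl6 window were tested among all bin pairs. For Smc1, 18 such pairs entered among 5673, and 0 were called by edgeR, as were 0% of all pairs; the smallest unadjusted p among the 18 was 0.0683, and DESeq2 called 0 of them. Of them, 9 had a positive and 9 a negative log2 fold change, with a median of -0.01. The pair with that p, chr16:23950001-23975000 with chr16:24850001-24875000 in Lpp, had 3 and 2 read pairs in NOD, and 12 and 29 in BL6. Bins overlapping the Bcl6 window reach past it, so counts of bin pairs include anchors outside Bcl6. The Bcl6 window itself had 11 and 4 Smc1 read pairs with that Lpp bin in NOD, and 24 and 20 in BL6. The pair of chr16:23950001-23975000 with A230028O05Rik's bin had 23 and 30 in NOD, and 41 and 26 in BL6. For H3K27ac no pair of Bcl6 had enough read pairs to be tested among 386, of which 2.59% were called. The Lpp-side share, the Lpp share, the share of long spans and the median span each had an adjusted p of 1.00 for NOD against BL6 in a two-sided exact permutation test, in Smc1 and in H3K27ac. Such a test of 2 against 2 libraries, or of 2 against 1, cannot go below 0.333.

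Mapped to NOD, the F1 library gave 219, and mapped to BL6, 225 read pairs of Bcl6, a log2 ratio of -0.09 in RPM. All 54 bin pairs listed for NOD were among the 55 listed for BL6. It is the same library mapped to 2 genomes, so the ratio bears on mapping and not on alleles.

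Genes around the function of BCL6 were counted from lists chosen with earlier results of these data known. Of the corepressor and partner genes, 14 of 16 were tested for Smc1 and 0 passed, with a median log2 fold change of 0.13 against 0.01 over all genes. Only 0.188% of all genes tested for Smc1 passed, so 0 in lists of this size says little about their members. Tbl1xr1, which encodes a corepressor complex subunit, had 297 and 255 RPM in NOD Smc1, and 286 and 206 in BL6 Smc1. Of BCL6 target genes known from germinal centre B cells and follicular helper T cells, 30 of 30 were tested and 0 passed, with a median of -0.03. Bach2, which encodes a repressor active in lymphocytes, led them with 571 and 583 RPM in NOD Smc1, and 546 and 602 in BL6 Smc1. Of follicular helper T cell genes 20 of 22 were tested, and of BTB zinc finger genes 18 of 19; 0 passed in either, with medians of 0.03 and 0.07. Lef1, a factor of early T cells, had 240 and 98.3 RPM in NOD Smc1, and 260 and 126 in BL6 Smc1. Zbtb16, which encodes the innate-like T cell factor PLZF, had 251 and 314 in NOD, and 253 and 248 in BL6. For H3K27ac and for the difference between antibodies 0 members of these 4 lists passed as well, and 0% of all genes did. In Smc1 the medians of the 4 lists lay between 1.08 and 1.57 RPM per kb of window. Those of the cell type marker lists lay between 0.996 (double-positive thymocyte) and 1.43 (thymic epithelial), largely the same range. No such median over all genes is given here, so these levels only describe the lists.

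Among the genes whose RPM followed those of Bcl6 most closely over 9 libraries were Tlcd3b with a Pearson r of 0.990, Ms4a10 and Pank1, a pantothenate kinase gene, each with 0.989, and Zfp608 with 0.987, on log2(value + 1), of 7398 genes over 2 Mb from Bcl6. The 9 values share library depth and the low H3K27ac libraries numbered 1: Tlcd3b, Ms4a10 and Zfp608 were all at 0 in BL6 H3K27ac library 1, and Pank1 had 4.54 there.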

How the data were processed

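HiChIP read pairs were measured in 9 libraries, deposited as 10 interaction tables, the F1 library on both genomes. Per the file headers, the tables list anchor pairs with a count of read pairs and of reads per anchor, not normalized, and the authors' p-value and q-value per interaction. Per the submitters' processing notes, HiC-Pro, Juicer 1.7.6 and MACS were named, with no role, and the build GRCm38. As checked on the values, each listed interaction joined loci of the same chromosome by 2 or more read pairs, with q at most 0.05. An unlisted pair is thus below that limit, and counted as 0 in sums and fits. Spans were up to about 2 Mb, so farther contacts were not analysed here.

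Read pairs were added up for each protein-coding gene (RefSeq, GRCm38.p6, 5 kb flanks) and each pair of 25 kb bins, for anchor midpoints at least 10 kb apart, and tested with edgeR 4.0.16 in R 4.3.3 (quasi-likelihood, TMM, filterByExpr, Benjamini-Hochberg over all genes or bin pairs, threshold 0.05), after a test on simulated data. Bin pairs entered with a total of at least 8 read pairs over the tables. Position shares were compared by exact permutation tests over libraries (scipy 1.17.1), adjusted over 12. DESeq2 1.42.0, other scalings, windows and bins, a replicate block and leaving out libraries were the alternatives. Intervals cover counting error only. Bcl6 and the gene lists were chosen with earlier results of these data known. The text names the 10 leading partner genes and other partner genes within 2 Mb, the 10 leading partner bins per antibody, the 5 most alike genes with a mean of at least 50 RPM, and up to 4 leading members per list; Sgk1 was chosen after its value was seen, and some genes that meet the rule are not reported here.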

Additional observations from a re-analysis of the deposited data

Results flagged for a closer look

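Contacts under the 10 kb minimum were used in no comparison, and 1 library held such a contact of Bcl6: BL6 Smc1 library 2 listed 1 interaction of 9 read pairs, while the NOD and F1 Smc1 libraries, BL6 Smc1 library 1 and the 4 H3K27ac libraries listed 0.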

How the results depend on the processing

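No result for the strains passed its threshold under any setting, so a turned sign is a turn of values near 0; the causes were not tested. For Bcl6 in Smc1, NOD over BL6, 8 of the 9 settings other than leaving out a library gave log2 fold changes from -0.0372 (no flank) to 0.23, with -0.00795 at 25 kb flanks, and chromosome 16 read pairs as library size gave 0.36; leaving out 1 library gave -0.26 to 0.58. For H3K27ac they ran from -0.23 (25 kb flanks), with -0.0239 at no flank, to 0.96, and leaving out 1 library gave -1.34 to 8.66. The last of these, without BL6 library 2, sets NOD against a library with no listed contact, so it is no fold (adjusted p = 0.727, edgeR; 0.990 to 1.00 without another library). The difference between antibodies turned to 0.0388 with DESeq2, 0.0484 with library size only and 0.38 with chromosome 16 read pairs, and ran from -1.49 to 9.86 without 1 library. No Bcl6 bin pair was called under any setting. Over all genes, calls ranged from 4 (without BL6 Smc1 library 2) to 805 (without NOD Smc1 library 1) for Smc1, against 34, and from 0 to 42 for H3K27ac, where 26 were called without NOD library 2.

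Replicate numbers were fitted as a block too. It gave Bcl6 log2 fold changes of 0.15 for Smc1 (adjusted p = 0.963, edgeR), 0.96 for H3K27ac (adjusted p = 1.00, edgeR) and 0.49 for their difference (adjusted p = 1.00, edgeR), and called 58 and 42 genes and 17 and 21 bin pairs, against 34 and 0 genes and 0 and 10 bin pairs without it. Deviations of same-numbered libraries correlated by 0.227 in Smc1 and 0.592 in H3K27ac over genes, and both H3K27ac libraries numbered 1 had the low chromosome 16 share; 2 pairs each are too few to show whether the numbers pair the libraries.

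The mean Lpp-side share of Smc1 moved to 93.6% with 25 kb flanks and to 98.3% with at least 3 read pairs per interaction, and was 95.9% to 97.3% without 1 library. In H3K27ac it moved to 82.1% with no flank and 94.4% with at least 3 read pairs, and was 86.9% to 88.6% without 1 library. H3K27ac stayed below Smc1 in this share under every setting, by -15.1 to -3.95 percentage points, and by -9.53 to -7.88 without 1 library. The mean of H3K27ac median spans moved from 952 to 678 kb with at least 3 read pairs, where H3K27ac minus Smc1 was -271 kb. For Smc1 it moved from 966 to 884 kb with 25 kb flanks. The share over 250 kb in Smc1 moved from 96.5% to 90.4% with 25 kb flanks and to 94.2% with at least 3 read pairs. In H3K27ac it moved from 96.7% to 92.3% with at least 3 read pairs. With at least 3 read pairs, signs turned in H3K27ac for NOD minus BL6 in the Lpp side (4.72 points) and the Lpp window (4.59), for H3K27ac minus Smc1 in the Lpp window (4.76) and over 250 kb (-1.86), and for Smc1 NOD minus BL6 over 250 kb (-0.00804; with no flank -1.45). With 25 kb flanks, H3K27ac minus Smc1 in the Lpp window was 8.74 points and the median span of H3K27ac NOD minus BL6 was 139 kb; with each interaction counted once, the median span of H3K27ac minus Smc1 was 14.1 kb. Leaving out 1 library gave, for NOD minus BL6 in Smc1, -3.59 to 0.199 points on the Lpp side, -2.56 to -1.35 in the Lpp window, -2.38 to 2.44 over 250 kb and -85.3 to 39.97 kb in median span. For NOD minus BL6 in H3K27ac it gave -3.28 to -2.10, -12.4 to 2.72, 1.39 to 5.6 and -152 to 90.03 kb, and for H3K27ac minus Smc1 -6.88 to 0.651 in the Lpp window, -1.40 to 1.40 over 250 kb and -68.7 to 52.1 kb. H3K27ac NOD against BL6 without BL6 library 2 gave no share, since the other BL6 library listed no contact.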
